A study of Mus musculus with 8 samples.

Results

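The genes described here are 37 type I interferon-stimulated genes, taken by symbol from a list chosen with earlier results of these data known. Of these, 36 had a row among the 22410 genes of the RNA tables and 36 a window among the 18603 promoter windows of the H3K27me3 tables. Mx1 was absent under that symbol and was not analysed here. The RNA tables also hold 4403 genes by Ensembl identifier only, and Mx1 was not looked for among them. The cells were naive CD4+ T cells from lymph nodes, of the strain 129SV/B6. RNA was measured along with H3K27me3, a repressive histone modification made by Polycomb repressive complex 2, whose catalytic subunit is either Ezh1 or Ezh2. Of the 4 genotypes, 1 was WT, 1 was Ezh1 -/- (called Ezh1 KO), 1 was Ezh2 fl/fl CD4-cre (called Ezh2 KO, and labelled Ezh2-/- elsewhere), and 1 carried both (called double KO). CD4-cre expresses the recombinase in the T cell lineage, so that floxed Ezh2 is lost there during T cell development; whether WT cells carried cre or floxed Ezh2 is not given in the sources used here. A genotype had 1 library per assay, so the differences have no SD and no test, and words such as higher refer to these libraries. The age and number of animals are not given either.

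Type I interferons are secreted after a cell senses foreign or misplaced nucleic acid. They bind the receptor Ifnar1/Ifnar2, whose kinases Jak1 and Tyk2 phosphorylate factors such as Stat2, which joins Irf9 in the complex ISGF3. ISGF3 binds the interferon-stimulated response element in the promoters of its target genes. The targets include sensors of viral RNA, enzymes that degrade or block it, and Irf7 and Stat2 themselves, so that the response feeds on itself.

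RNA values throughout are a gene's peak coverage per M reads, averaged over its exons and not divided by length. The height of 1 read put the RNA libraries at 36.1 to 94.1 M reads, with WT and the Ezh2 KO the shallower pair. As a check of the labels, Ezh1 RNA was 1.05 for WT, 0.196 for the Ezh1 KO, 1.12 for the Ezh2 KO and 0.194 for the double KO. Ezh2 RNA averaged over its 21 exons was 0.925, 0.913, 1.08 and 1.17 in the same order, which cannot show the loss of a few exons, so the Ezh2 deletion rests on the labels. At the Cd4 promoter, part of which a CD4-cre transgene carries, H3K27me3 coverage was 19.9, 24.1, 193 and 212, high in both libraries labelled with cre. The 9 T cell markers, among them Cd3e, Cd4 and Tcf7, had at least 5.39 in each library.

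Interferon-stimulated RNA was higher in both libraries with Ezh2 deleted than in both with Ezh2 intact, and differed less with Ezh1. For 35 of the 36 genes the Ezh2 KO and double KO values both lay above the WT and Ezh1 KO values, a pattern that 19% of all 22410 genes showed. Among genes with a mean of at least 1 over the 4 libraries it was 34 of 34 members and 19% of 4981 genes, with Ifi204 and Oasl1 under that minimum. Ifi204 was the gene outside the pattern, and with TMM or median-of-ratios scaling Irf9 and Samhd1 were outside it too. The median member stood at 1.79 times its WT value in the Ezh2 KO and at 1.84 times it in the double KO, against 1.19 times in the Ezh1 KO.

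Of the 35 members that reached 1 in WT or the Ezh2 KO, 12 were at least 2-fold above WT in the Ezh2 KO and 0 below; over all 5347 such genes these shares were 1.1% and 0.393%. For the double KO the counts were 13 and 1 of 36 members, against 1.07% and 0.169% of 5313 genes. Folds are of the value plus 0.1, which understates the difference of low genes. These comparisons share the WT library; 11 members were called higher in both, Eif2ak2 in the Ezh2 KO and Mx2 and Oasl1 in the double KO. Median log2 ratios of the members that entered were 0.83 and 0.87, beside -0.04 and -0.10 over all genes that did. Of the members that entered, 8 and 9 were under 1 in WT and did so through the other library.

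**Figure D1:**
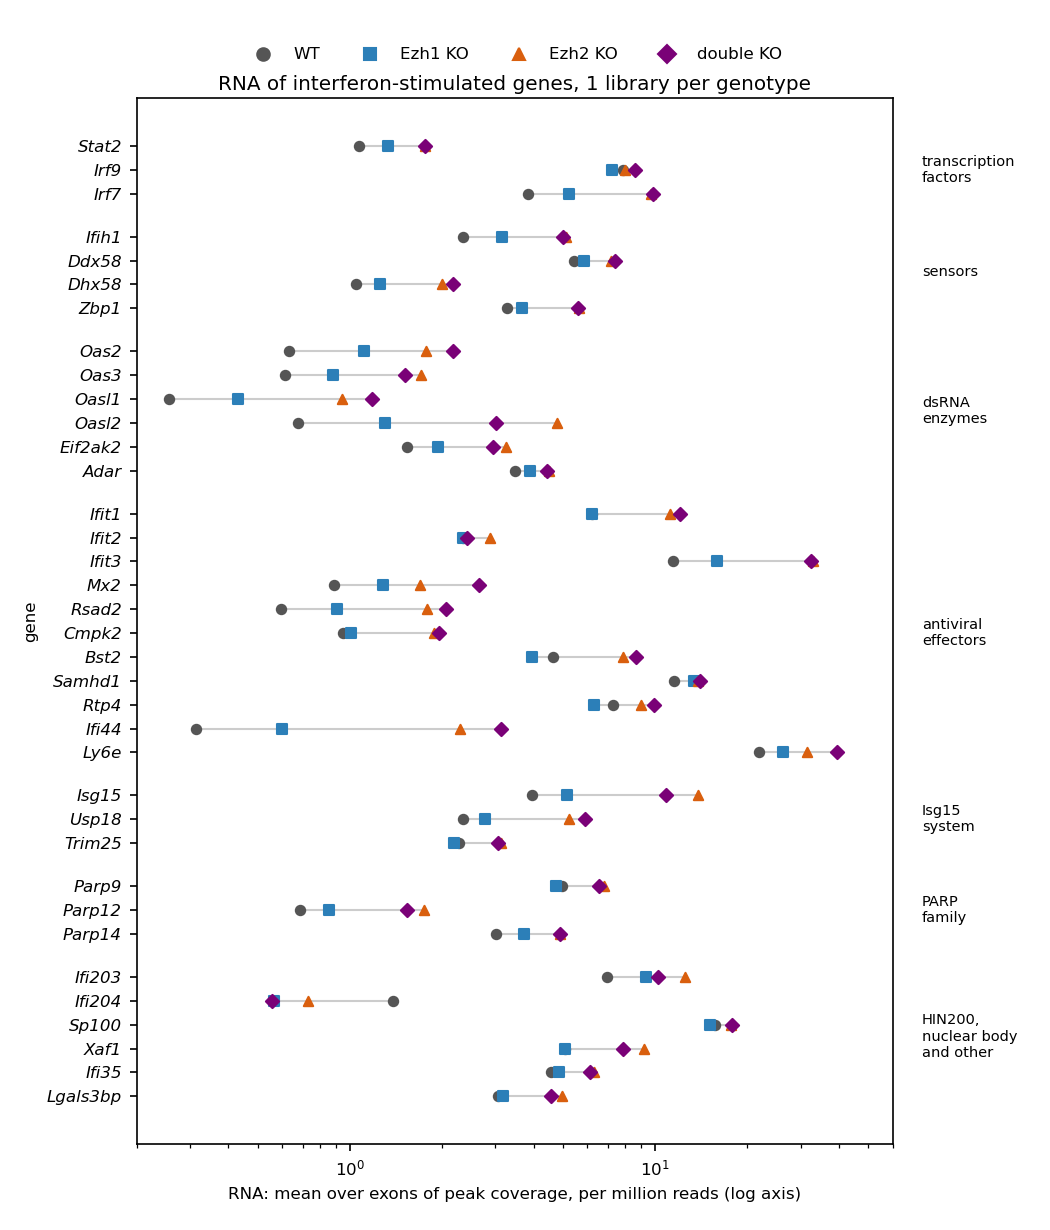
RNA (peak coverage per M reads averaged over exons, log axis) for the 36 interferon-stimulated genes with a row, ordered by role; each marker is 1 library and the grey bar spans the 4 libraries of a gene. The Ezh2 KO and double KO markers lie to the right of the WT and Ezh1 KO markers for 35 genes, and Ifi204 runs the other way.

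Deleting Ezh2 can be read again with no library in common, by setting the double KO against the Ezh1 KO. There 8 of 35 members passed 2-fold upward and 0 downward, against 0.726% and 0.157% of 5096 genes. Of the members that entered, 5 were under 1 in the Ezh1 KO and did so through the double KO. The called genes Ifi44, Oasl1 and Rsad2 were among them. The median log2 ratio was 0.64 over the members and 0.04 over all genes that entered. With no minimum, every member except Ifi204 was above 0 both here and in the Ezh2 KO against WT. Of all genes that reached 1 in either library, 60.3% and 43.6% were above 0 in the same order. With TMM scaling 35 and 34 of 36 members were above 0, beside 65.2% and 37.3% of such genes. Across the 36 members the log2 ratios of the 2 comparisons had a Pearson r of 0.83 and a Spearman rho of 0.85, beside 0.13 and 0.15 across the 4981 genes; genes are not independent replicates. Ifi44 was second in the one, at 2.53, and first in the other, at 2.21.

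**Figure D2:**
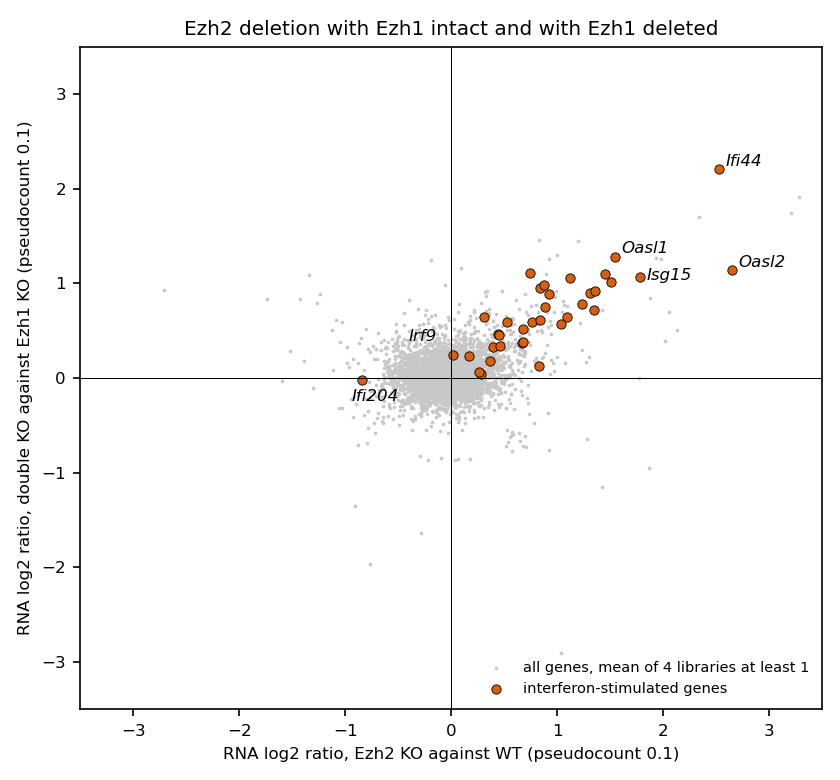
RNA log2 ratios (pseudocount 0.1) for the Ezh2 deletion with Ezh1 intact (Ezh2 KO against WT, x axis) and with Ezh1 deleted (double KO against Ezh1 KO, y axis); orange points are the 36 members and grey points the 4981 genes with a mean of at least 1. The members lie to the upper right of most genes, from Irf9 at 0.02 and 0.24 to Ifi44 at 2.53 and 2.21, with Ifi204 to the left.

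Deleting Ezh1 made smaller differences. In the Ezh1 KO 0 of 31 members were at least 2-fold above WT and 1, Ifi204, was below, against 0.154% and 0.288% of 5201 genes. In the double KO 0 of 35 members differed 2-fold from the Ezh2 KO, against 0.345% higher and 0.441% lower of 5218 genes, and 34 of 36 lay within 1.5-fold; Oasl2 and Mx2 did not. With no minimum the Ezh1 KO was above WT for 27 of 36 members, and it was for 22.7% of the 5201 genes that reached 1. Median log2 ratios were 0.16 over the 31 members that reached 1 and -0.13 over those 5201 genes. With no minimum they were 0.23 over the 36 members and -0.019 over all 22410 genes. With TMM scaling the Ezh1 KO was above WT for 32 of 36 members and 42.4% of the genes that reached 1. Without scaling, the largest member log2 ratios were 0.85 for Oasl2, 0.75 for Ifi44 and 0.72 for Oas2.

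Promoters are shown because ISGF3 binds its response element there. The core was searched as 2 copies of GAAA separated by 2 bases of any kind, on both strands, from 250 bases before to 50 after the start. Of the members 26 matched the RefSeq promoter table (GRCm38.p6), and 11 of these (42.3%) held at least 1 match, against 3.99% of all 27025 genes in the table. The gamma-activated site core TTCNNNGAA was in 23.1% of the member genes and 9.55% of all. Shown 5′ to 3′ on the gene's strand are the 250 bases before the start, with core matches on either strand in capitals, for the 4 members with a match there and the highest RNA ratios in the Ezh2 KO, and for Parp12, a CpG-rich promoter without one.
Isg15: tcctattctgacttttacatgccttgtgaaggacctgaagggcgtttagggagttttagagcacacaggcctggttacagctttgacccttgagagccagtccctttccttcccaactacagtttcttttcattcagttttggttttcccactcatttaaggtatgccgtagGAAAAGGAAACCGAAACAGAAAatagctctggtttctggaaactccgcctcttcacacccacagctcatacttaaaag
Ifit3: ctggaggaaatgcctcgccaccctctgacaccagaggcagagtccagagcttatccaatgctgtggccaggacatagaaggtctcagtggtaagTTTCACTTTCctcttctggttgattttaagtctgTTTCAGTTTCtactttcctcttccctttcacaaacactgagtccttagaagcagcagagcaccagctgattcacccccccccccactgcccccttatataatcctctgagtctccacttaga
Rsad2: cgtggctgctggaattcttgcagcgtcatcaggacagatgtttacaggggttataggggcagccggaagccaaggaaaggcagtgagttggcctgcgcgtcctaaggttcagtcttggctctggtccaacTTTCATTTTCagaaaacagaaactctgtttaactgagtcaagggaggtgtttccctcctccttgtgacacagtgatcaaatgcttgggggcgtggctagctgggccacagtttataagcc
Oas3: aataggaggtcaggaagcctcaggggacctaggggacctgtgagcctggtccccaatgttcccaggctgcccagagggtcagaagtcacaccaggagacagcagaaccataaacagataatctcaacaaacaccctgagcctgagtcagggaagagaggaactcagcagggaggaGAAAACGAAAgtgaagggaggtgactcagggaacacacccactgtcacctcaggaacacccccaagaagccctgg
Parp12: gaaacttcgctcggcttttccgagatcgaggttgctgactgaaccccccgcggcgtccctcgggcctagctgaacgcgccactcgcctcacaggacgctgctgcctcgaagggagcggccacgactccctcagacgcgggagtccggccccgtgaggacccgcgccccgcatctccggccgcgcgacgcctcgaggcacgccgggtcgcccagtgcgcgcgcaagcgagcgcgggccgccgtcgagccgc
In GRCm38.p6 these lie at chr4:156200819-156201068 (Isg15, minus strand), chr19:34583279-34583528 (Ifit3, plus), chr12:26456453-26456702 (Rsad2, minus), chr5:120777660-120777909 (Oas3, minus) and chr6:39118350-39118599 (Parp12, minus). Isg15 holds 3 matches that overlap, Ifit3 has 2, and Rsad2 and Oas3 have 1 each. Parp12 was 73.7% G and C with an observed to expected CpG ratio of 1.14 over the searched span, where Ifit3 had a ratio of 0.056. The 11 members with a match had a median RNA log2 ratio of 1.03 in the Ezh2 KO (0.40 to 1.78), and the 15 without one 0.68 (0.02 to 2.65), so the ranges overlapped. A missing match says only that these letters are not in the span.

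Among the transcription factors of the response, Irf7, which amplifies interferon production, differed most. Its RNA was 3.85 for WT, 5.21 for the Ezh1 KO, 9.69 for the Ezh2 KO and 9.82 for the double KO. Both libraries with Ezh2 deleted were at least 1.86 times either library with it intact. Stat2, a subunit of ISGF3, was at 1.07, 1.34, 1.77 and 1.76 in the same order of libraries, which is kept below. Irf9, the DNA-binding subunit of ISGF3, was at 7.87, 7.22, 7.99 and 8.57, nearly level.

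Of the 4 sensors, 1 passed 2-fold against WT in the libraries with Ezh2 deleted. That was Ifih1, which encodes MDA5, a sensor of long double-stranded RNA, at 2.34 for WT, 3.16 for the Ezh1 KO, 5.12 for the Ezh2 KO and 4.99 for the double KO. Dhx58, the related LGP2, was at 1.05, 1.25, 2.01 and 2.18, just short of 2-fold with log2 ratios of 0.88 and 0.99. Ddx58, which encodes RIG-I, differed less, at 5.42, 5.83, 7.16 and 7.37. Zbp1, a sensor of left-handed nucleic acid, was at 3.28, 3.67, 5.65 and 5.57.

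Enzymes that act on or are switched on by double-stranded RNA included the member with the largest ratio in the Ezh2 KO. Of those that reached 1, 4 of 5 passed 2-fold against WT in the Ezh2 KO and 4 of 6 in the double KO, beside the 1.1% and 1.07% of all genes. Oas2, Oas3 and Oasl2, and in the double KO Oasl1, were under 1 in WT and entered through the mutant library. Such genes had to differ from WT, so these counts are description only. Oasl2, an oligoadenylate synthetase-like protein, was at 0.677 for WT, 1.30 for the Ezh1 KO, 4.77 for the Ezh2 KO and 3.00 for the double KO. Between the double KO and the Ezh2 KO it differed more than any other member, with a log2 ratio of -0.65, and was higher in the Ezh2 KO. Oasl1, known to restrain translation of Irf7, was low throughout, at 0.256, 0.429, 0.942 and 1.18, and under the minimum in the Ezh2 KO comparison, where its log2 ratio was 1.55. Oas2 and Oas3, synthetases that activate RNase L, had 0.633, 1.11, 1.78 and 2.18 for Oas2 and 0.611, 0.879, 1.71 and 1.52 for Oas3. Eif2ak2, the kinase PKR, was at 1.54, 1.95, 3.26 and 2.94. Adar, which edits double-stranded RNA, differed least here, at 3.48, 3.91, 4.51 and 4.44.

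Antiviral effectors spanned the range of differences. Ifi44 was at 0.314 for WT, 0.598 for the Ezh1 KO, 2.29 for the Ezh2 KO and 3.14 for the double KO, and its lower value with Ezh2 deleted was 3.83 times its higher value with Ezh2 intact, the widest gap in the list. The WT value stands for about 11.4 stacked reads. Ifit3, of the tetratricopeptide family that binds foreign RNA, was at 11.5, 15.9, 32.9 and 32.4, and Ifit1 at 6.22, 6.20, 11.2 and 12.1. Ifit2, on the same chromosome, hardly differed, at 2.35, 2.35, 2.89 and 2.42. Reads of Ifit3 and the close copy I830012O16Rik, which was at 8.33, 11.4, 23.5 and 22.8, may not be fully told apart, so the split between them is uncertain.

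Rsad2, the viperin that makes a chain-terminating nucleotide, and Cmpk2, a nucleotide kinase whose gene lies beside it on chromosome 12, showed the same order of libraries. Rsad2 was at 0.593, 0.909, 1.80 and 2.07, and Cmpk2 at 0.949, 1.01, 1.89 and 1.96. Mx2, a dynamin-like GTPase, was at 0.885, 1.29, 1.70 and 2.64, with the double KO highest. Bst2, the tetherin that holds budding virus at the membrane, was at 4.62, 3.96, 7.82 and 8.63. Samhd1, which depletes nucleotides, differed little, at 11.5, 13.4, 13.9 and 14.0. Rtp4 was at 7.27, 6.31, 9.0 and 9.95, and Ly6e at 21.9, 26.2, 31.6 and 39.5.

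Isg15, a ubiquitin-like modifier, and Usp18, which removes it from proteins and blocks the receptor, were at least 2-fold above WT in each library with Ezh2 deleted, and in the double KO against the Ezh1 KO. Isg15 RNA was 3.94 for WT, 5.14 for the Ezh1 KO, 13.8 for the Ezh2 KO and 10.9 for the double KO. Usp18 was at 2.35, 2.77, 5.24 and 5.89. Trim25, a ligase that acts on RIG-I, differed less, at 2.28, 2.19, 3.13 and 3.06. In mm9 Isg15 lies on the minus strand of chromosome 4 (155573533 to 155574927), and its promoter window also holds the start of AW011738.

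Of the PARP family, ADP-ribosyltransferases with antiviral roles, Parp12 passed 2-fold in both libraries with Ezh2 deleted. Parp12 was at 0.688, 0.857, 1.75 and 1.54, Parp14 at 3.01, 3.73, 4.86 and 4.87 and Parp9 at 4.94, 4.76, 6.78 and 6.55. Xaf1, a proapoptotic factor, was at 5.08, 5.09, 9.18 and 7.83, and Lgals3bp, a secreted glycoprotein, at 3.05, 3.17, 4.95 and 4.57. Ifi35 was at 4.57, 4.84, 6.31 and 6.13, and Sp100, of the nuclear bodies, at 15.7, 15.2, 17.7 and 17.9. The last 4 genes were under 2-fold in each comparison.

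The HIN200 genes, which encode sensors of DNA, split. Ifi203 was at 6.98 for WT, 9.36 for the Ezh1 KO, 12.5 for the Ezh2 KO and 10.3 for the double KO. Ifi204 ran against the list, at 1.39, 0.566, 0.730 and 0.555. By the median over its 10 exons Ifi204 had 0.233, 0.184, 0.544 and 0.270 instead, so the order of libraries depends on the summary. Both lie among close relatives, and how their reads were split is uncertain.

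Grouped by WT level, the lowest genes had the largest median ratio. The 9 members under 1 in WT had a median log2 ratio of 1.36 in the Ezh2 KO, the 17 from 1 to 5 had 0.68, and the 10 at 5 or more had 0.46. WT enters both sides of that statement; in the double KO against the Ezh1 KO, where it does not, the same groups had 0.98, 0.51 and 0.46.

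The interferon genes were nearly silent and the receptor was level. None of 16 interferon genes (Ifnb1, 10 Ifna genes, Ifnk, Ifne, Ifng, Il28a and Il28b) exceeded 0.0678 in any library. Ifnb1 was at 0, 0.0142, 0 and 0.0106, the height of 1 read or less. Of 8 genes listed for the receptor and its signalling, 7 reached 1 and 0 differed 2-fold in RNA from WT in any mutant. The receptor chains Ifnar1 and Ifnar2 had 3.49, 3.03, 2.76 and 3.06 and 2.32, 2.25, 2.40 and 2.15, and the kinases Jak1 and Tyk2 9.77, 10.0, 9.18 and 10.7 and 0.557, 0.556, 0.550 and 0.552.

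Of 5 inhibitors and 11 upstream sensors, 4 and 6 reached 1 in any library, and 0 of either list differed 2-fold in RNA from WT. At most 1.1% of all genes did so in either direction. Socs1, which blocks the receptor kinases, was at 0.646, 0.757, 0.912 and 0.952, and Irf3, which starts interferon production, at 3.40, 3.34, 2.81 and 3.23. The Socs3 promoter window had H3K27me3 of 8.77, 18.4, 11.9 and 19.8, higher in both libraries with Ezh1 deleted than in both with Ezh1 intact. It passed 2-fold in the double KO, with a log2 ratio against WT of 1.09, as 0.0334% of all windows did upward. With Ezh1 alone deleted the ratio was 0.99, just short of 2-fold, and with Ezh2 alone deleted 0.40. A further list of interferon-stimulated genes, also chosen with earlier results known, showed the members' pattern. Both libraries with Ezh2 deleted lay above both intact ones for 27 of 30, beside 19% of all 22410 genes. At least 2-fold above WT were 4 of 25 in the Ezh2 KO and 4 of 25 in the double KO. Of all genes that reached 1, 1.1% and 1.07% were. Ifitm3, which blocks viral fusion, was at 0.351, 0.416, 2.18 and 1.57, Oas1a at 0.698, 0.900, 3.05 and 2.29, and Ube2l6, the conjugating enzyme for Isg15, at 0.346, 0.493, 1.30 and 1.03. These 3 were called in both, with Phf11 (1.43, 2.23, 3.61 and 2.51) in the Ezh2 KO and Pml, the organiser of nuclear bodies (1.21, 1.71, 2.36 and 2.84), in the double KO.

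Summed markers of 4 other cell types were higher in the same libraries. In bulk RNA, more cells of a type and more RNA per cell cannot be told apart. The 10 B cell and plasma cell markers summed to 3.24, 3.57, 7.04 and 9.11, and 9 of 10 showed the members' pattern, which 19% of all 22410 genes showed. Cd79a, a subunit of the B cell receptor, was at 0.359, 0.499, 0.755 and 1.12, low but above 0. The 12 CD8 T and NK cell markers summed to 5.37, 5.00, 9.91 and 8.15, 5 of 12 with the pattern. Gzma, the highest of them in the Ezh2 KO, was at 0.226, 0.270, 2.90 and 1.13. Others ran the other way: Prf1 was at 1.43, 1.03, 1.07 and 1.06, and Klrd1 at 0.854, 0.459, 0.398 and 0.516. The 9 myeloid markers summed to 0.621, 0.900, 0.993 and 1.67, 5 of 9 with the pattern, and S100a8 was at 0 in both libraries with Ezh2 deleted. Lyz2, the highest of them in each library, was at 0.275, 0.561, 0.576 and 1.19. The 5 plasmacytoid dendritic cell markers, from a cell type known for interferon secretion, summed to 1.52, 1.56, 1.85 and 2.27, 5 of 5 with the pattern, and Siglech was at 0.0821, 0.0739, 0.128 and 0.387. The 6 memory and effector markers summed to 9.09, 6.71, 5.34 and 6.30. The part of these cells in the interferon-stimulated RNA was not tested.

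H3K27me3 at most of these promoters was near background in WT. No member window was 2-fold lower than WT in a mutant, and at most 0.139% of all windows were in any mutant. A count of 0 therefore does not set the members apart. The value is the area of coverage per M reads over a 6 kb window, and 33 of the 36 windows were centred within 10 bases of a transcript start in the mm9 annotation. In 11 of the 36, among them Trim25, Samhd1, Parp12 and Oasl1, the window also held the start of another annotated gene. Signal in those windows cannot be assigned to the member alone. Eif2ak2 and Mx2 were listed at 0 in every library, as 528 windows were. The other 34 had medians of 9.13 for WT, 9.66 for the Ezh1 KO, 11.2 for the Ezh2 KO and 10.2 for the double KO. Background, the windows of the genes in the upper of 3 equal groups by WT RNA, had 10.1, 9.82, 11.1 and 10.4. The 2231 windows marked in WT, with at least 4 times background (12% of all windows), had 51.5, 64.2, 47.5 and 56.9. Of the member windows 0 were marked, and 5 of 36 lay above the median of all windows.

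**Figure D3:**
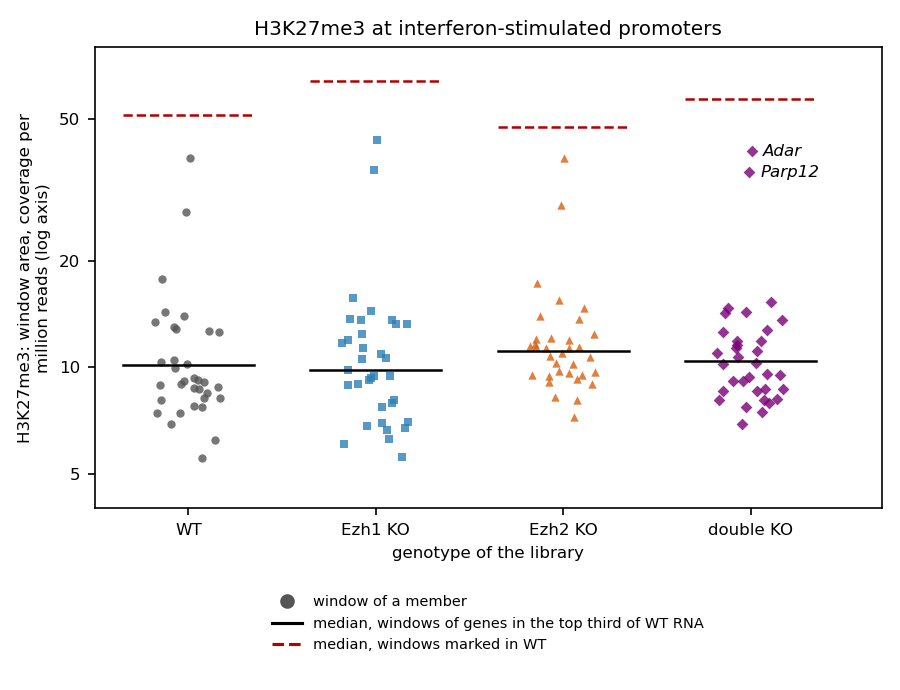
H3K27me3 window area (coverage per M reads, log axis) at the 34 member promoters with signal in each library; black lines are background medians and red dashed lines medians of the windows marked in WT. Most member windows sit around the black line in each genotype, and Adar and Parp12 sit between the lines.

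Of the 34 windows, 0 differed 2-fold in any comparison. Over all windows 0.0111% were higher and 0.0223% lower when the Ezh1 KO was set against WT; for the Ezh2 KO it was 0.0167% and 0.0167%, and for the double KO 0.0334% and 0.139%. Relative to the Ezh1 KO the double KO had 0.0167% higher and 0.206% lower, and relative to the Ezh2 KO 0.0167% in each direction. Median log2 ratios of the members against WT were 0.04, 0.14 and 0.11, beside 0.09, -0.01 and 0.05 over all windows. Both libraries with Ezh2 deleted lay above both intact ones for 12 of 34 members (19.6% of all windows) and below for 2 (21.3%). A window held 73 to 512 read equivalents in WT. The 95% counting interval of the ratio (exact Clopper-Pearson, counting error only) lay above 0 in the Ezh2 KO for 8 of 34 windows, or 23.5%, against 13.5% of background windows and 8.33% of all windows. It lay below 0 there for 1, Cmpk2, or 2.94%, against 5.07% and 15.7%. In the Ezh1 KO it lay above 0 for 8.82% of member windows, against 8.74% of background and 29% of all windows, and in the double KO for 14.7%, against 11.1% and 18.4%. In each of these it lay below 0 for 1 member window, Oasl1, or 2.94%. The shares of background and all windows below 0 were 6.58% and 4.67% in the Ezh1 KO, and 6.07% and 9.27% in the double KO.

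The windows with the largest ratios were weak ones. Trim25 had 6.26, 5.58, 10.7 and 8.14, a log2 ratio of 0.68 (0.36 to 1.17) in the Ezh2 KO with its counting interval. Irf9 had 6.90, 8.97, 11.4 and 9.14 and Samhd1 5.55, 6.29, 9.29 and 8.07. The genes with the 3 largest RNA ratios in the Ezh2 KO had counting intervals that included 0: Oasl2 had 8.98, 9.21, 10.3 and 9.18, Ifi44 13.4, 11.7, 11.5 and 11.0 and Isg15 9.93, 12.4, 10.7 and 11.9. Among the other members called higher in RNA there, Ifit3, Oas3 and Ifih1 had intervals above 0, with 9.11, 13.6, 13.7 and 12.7 for Oas3. Across the 34 genes the RNA and H3K27me3 log2 ratios in the Ezh2 KO had a Pearson r of -0.23 and a Spearman rho of -0.27, a description over genes of the same libraries.

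A pair of windows stood above the rest. Adar had 38.8, 43.8, 38.9 and 40.6, 3.83 times background in WT, and Parp12 had 27.3, 36.0, 28.7 and 35.5. Parp12 was higher in both libraries with Ezh1 deleted, with log2 ratios and counting intervals of 0.38 (0.20 to 0.59) and 0.36 (0.18 to 0.57). The medians of the marked windows had the same pair of libraries on top. Oasl1, next in WT with 17.7, held a narrow peak whose highest bin was 1.03 in WT, against 0.477 for Adar. Its window had 17.7, 13.7, 17.2 and 14.2. The log2 ratios against WT were -0.35 (-0.66 to -0.10) in the Ezh1 KO and -0.30 (-0.59 to -0.04) in the double KO.

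Outside the members, the 3 interferon-stimulated genes of the further list called higher in RNA in both libraries with Ezh2 deleted had less of the mark in both. Ube2l6 had H3K27me3 of 29.3, 28.6, 17.9 and 15.7, with log2 ratios against WT of -0.68 (-0.95 to -0.47) in the Ezh2 KO and -0.86 (-1.15 to -0.66) in the double KO. Ifitm3 had 36.5, 41.0, 24.5 and 29.2, and Oas1a 13.5, 14.3, 9.12 and 10.1. None of the 30 windows of their list differed 2-fold from WT. These 3 were chosen after their values were seen, and Oas1a belongs to a family of close copies.

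**Figure D4:**
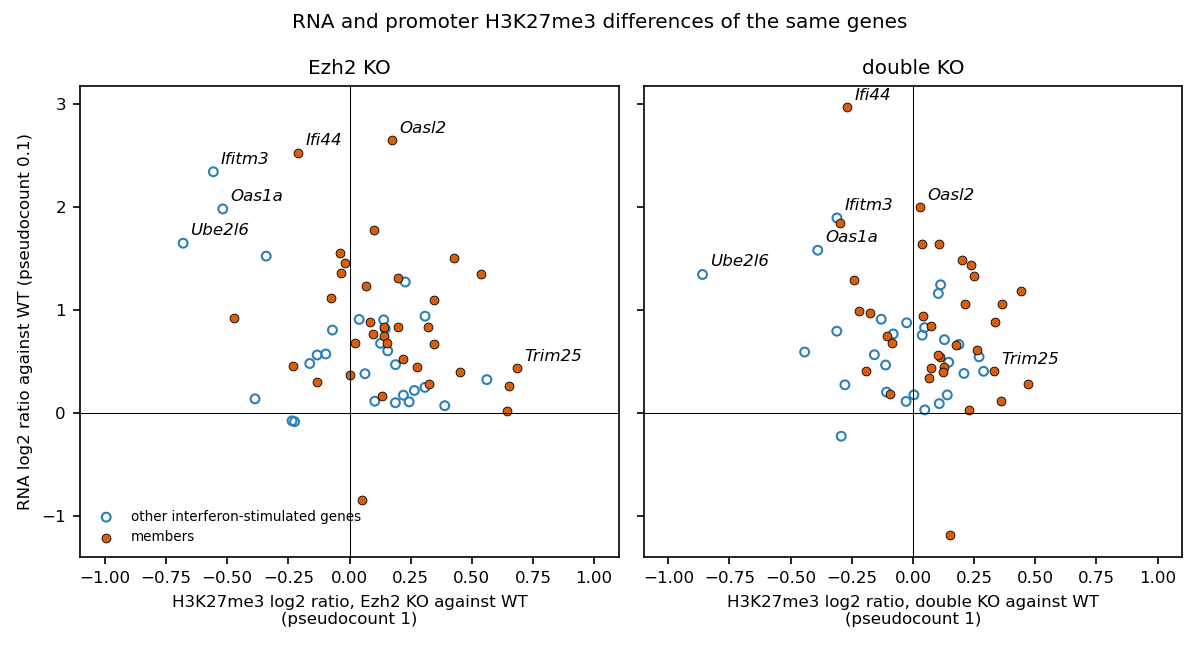
Log2 ratio against WT of RNA (pseudocount 0.1, y axis) and of H3K27me3 at the same gene's promoter (pseudocount 1, x axis) in the Ezh2 KO and the double KO; orange points are the 34 members with promoter signal and open circles the other interferon-stimulated genes. Members spread on both sides of 0 on the x axis while lying above 0 on the y axis, except Ifi204, and Ube2l6, Ifitm3 and Oas1a lie to the upper left.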

How the data were processed

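RNA-seq and H3K27me3 ChIP-seq of naive CD4+ T cells were analysed. Per the labels' protocols, reads were aligned to mm9 with Bowtie 0.12.7 and kept with 2 errors or less at 1 location, a step described within the ChIP protocol; bcl2fastq, Cufflinks and Cuffdiff are listed in the submitters' processing notes with no stated use. The deposited values are coverage signal. Per the file headers they are an area and a peak per promoter window for ChIP, and a mean and a median of exon peaks per gene for RNA; another number in the deposited RNA files is the count of exons. From the values, both are per M reads. How the authors derived them, and whether input was used, is not given in the sources used here. ChIP depth from the height of 1 read was 78.2 to 88.2 M reads, each spanning 151 bp, which sets the read equivalents.

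Log2 ratios used a pseudocount of 0.1 (RNA) or 1 (ChIP), for features at 1 or more in the higher library, and calls were made at 2-fold (Python 3.11.15, numpy 2.4.6, scipy 1.17.1). The calls were also run on simulated data with counting noise only. Such data cannot show how far libraries of the same genotype differ. With 1 library per group no p-value was computed. Any member may be named; genes of other lists are named where 2-fold different or as list examples. The members and lists were chosen with earlier results of these data known. Alternatives were TMM and median-of-ratios scaling, background scaling, other pseudocounts, minimum values and thresholds, the median over exons and the highest bin. Those for the pattern across Ezh2 genotypes, for the medians of the double KO against each single KO and for the counts of members 2-fold lower were added after seeing the data. Promoter sequences are from RefSeq.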

Additional observations from a re-analysis of the deposited data

Results flagged for a closer look

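Oasl2 differed in opposite directions when Ezh1 was deleted on each Ezh2 background, by at least 1.5-fold in each. Its RNA log2 ratio was 0.85 in the Ezh1 KO against WT and -0.65 in the double KO against the Ezh2 KO. With 1 library per genotype this difference was not tested, and it was the one member of 36 that met this description.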

How the results depend on the processing

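Of 158 alternatives for the counts and medians, 130 stayed within 1.5 times the reported count or 0.1 of the reported median and 28 moved; 10 of the latter concern counts of members 2-fold lower, which were 0 or 1 throughout. The pattern of both libraries with Ezh2 deleted above both intact ones held for 33 of 36 members with TMM or median of ratios, where Irf9 and Samhd1 joined Ifi204 outside it, and for 35 (15.4% of all genes) by the median over exons, where Ifit2 was outside. A pseudocount of 1 lowered the counts of members 2-fold higher to 5 (Ezh2 KO), 6 (double KO) and 1 (double KO against Ezh1 KO), beside 27 of 5347, 22 of 5313 and 3 of 5096 genes, with medians of 0.57, 0.61 and 0.50, since it is large beside genes under 1. At 1.5-fold these counts were 23, 23 and 21, beside 181, 141 and 132 of the same totals, with 2 for the Ezh1 KO (31 of 5201 genes) and 1 for the double KO against the Ezh2 KO (71 of 5218). The double KO median was 0.98 with TMM and 0.76 by the median over exons. That of the double KO against the Ezh2 KO was 0.15 with TMM and 0.14 with median of ratios, where all genes had 0.09 and 0.08. The H3K27me3 median was 0.022 (background scaling) and 0.018 (highest bin) in the Ezh2 KO, and -0.00081 (highest bin) in the double KO; the pseudocount of 1 is large beside the highest bins. Ifi204 was no longer called lower in the Ezh1 KO or double KO with a pseudocount of 1, stricter minimum values or the median over exons. No paired analysis was possible because each group has 1 library, which also leaves no replicate to omit. Depth limits low RNA values: 1 read is worth 0.0277 in WT and 0.0106 in the double KO.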

Other observations

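The genes that were at least 2-fold higher both in the Ezh2 KO against WT and in the double KO against the Ezh1 KO, comparisons that share no library, numbered 14. Of these, 6 (42.9%) were members by symbol: Ifi44, Ifit3, Isg15, Oasl2, Rsad2 and Usp18. Ifitm3 and Oas1a, interferon-stimulated genes outside the list, were also among them, as were Gzma, Plac8, Ly6k and Slfn9. The other 2 are given by Ensembl identifier only and were not matched to the list, so whether Mx1 is among them was not checked. Members by symbol made up 20.3% of the 59 genes higher in the Ezh2 KO and 21.6% of the 37 higher in the double KO against the Ezh1 KO.

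Ligand promoters differed from those of the responding genes. The 16 interferon genes, nearly silent in RNA, had a median H3K27me3 of 28.8 for WT, 28.5 for the Ezh1 KO, 23.7 for the Ezh2 KO and 24.6 for the double KO, above the members. Of these windows 0 were marked or 2-fold different from WT.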
